A study of Bos taurus with 7 samples.

Results

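The fibroblast growth factor (FGF) system was described in 7 RNA sequencing libraries of whole bovine preantral follicles, each a pool of follicles with the oocyte and its granulosa cells together. The genes were 4 receptors (*FGFR1*, *FGFR2*, *FGFR3* and *FGFR4*) and 6 ligands (*FGF2*, *FGF8*, *FGF9*, *FGF10*, *FGF16* and *FGF18*), chosen by name and found by the RefSeq accessions of their transcripts, which makes 10 of the 23704 genes with a matched transcript. Secondary follicles (SF, 3 libraries), with several layers of granulosa cells, were compared with primary follicles (PF, 4 libraries), with a single cuboidal layer. Both stages were isolated mechanically from ovaries of Holstein Friesian dairy cows collected at slaughter, were untreated, and according to the study's methods recovered briefly in a medium with insulin and FSH before lysis. Follicles of several animals were pooled by class and the sources used here do not say which animals a library holds. The study describes the pools as biological replicates. Since the animals of each library are not given, the p-values describe the spread between the libraries, which may be technical.

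FGFs are secreted proteins that bind heparan sulfate on the cell surface and in the matrix and activate receptor tyrosine kinases, the FGFRs. The activated receptor phosphorylates the adaptor FRS2 and switches on the RAS, MAP kinase and PI3K routes, and these induce feedback inhibitors such as the Sprouty proteins and DUSP6 and transcription factors such as ETV5. In the ovary FGFs are known as signals between the oocyte, the granulosa cells and the surrounding theca and stroma. FGF9 and FGF16 belong to one ligand subfamily, FGF8 and FGF18 to another, and FGF10 is typically a mesenchymal ligand that acts on epithelial cells through FGFR2.

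The libraries held 18788105 to 23764615 estimated counts. Levels are given in TPM (transcript abundance scaled to a fixed library total and corrected for transcript length), summed over the matched transcripts of a gene. They can be compared between genes as far as those models cover each gene. One library stood apart: 10 stromal fibroblast markers summed to 549, 292 and 240.1 TPM in SF, against 433, 424 and 625 TPM in PF replicates 1 to 3 and 5879 TPM in PF replicate 4. This library was left out of the tests, and its values are given beside those of the FGF genes. Each log2 fold change sets SF over PF and stands with its SE and the Wald test of DESeq2, adjusted over all genes, on 3 libraries per stage. In this comparison 19.1% of 15056 genes tested were called at an adjusted p below 0.05 (8.14% higher and 11.0% lower in SF), and all calls below are of this test unless another is named. The quasi-likelihood test of edgeR called 0 genes (4044 at an unadjusted p below 0.05), so it made none of the calls given here. On data simulated with the spread of these libraries DESeq2 also called genes that had not been changed, beyond the share its threshold allows.

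Of the 10 genes, 9 had a count in at least 1 of the 6 libraries compared, and 8 received an adjusted p. Among these 8, *FGFR1* was called higher in SF, *FGF9* and *FGF16* were called lower, and 5 did not pass. The counts of 1 and 2 among 8 stand beside 8.14% and 11.0% of all genes. On log2(TPM + 1) limma called none of the 7 genes it tested, against 6.02% of all genes (1.77% higher and 4.25% lower in SF), and *FGFR1*, *FGF9* and *FGF16* had an unadjusted p below 0.05. With PF replicate 4 kept DESeq2 also called none of 7, against 5.82% of all genes (2.63% higher and 3.19% lower). At 1 TPM or more in every library, 5 genes were expressed in SF, namely *FGFR1*, *FGF9*, *FGF2*, *FGF16* and *FGFR2*. With the same floor 5 genes were expressed in PF replicates 1 to 3, namely *FGF9*, *FGF16*, *FGF2*, *FGFR1* and *FGF8*. *FGFR3* and *FGF18* stayed below the floor in some libraries of each stage, *FGF10* was found in 1 library and *FGFR4* in none.

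**Figure D1:**
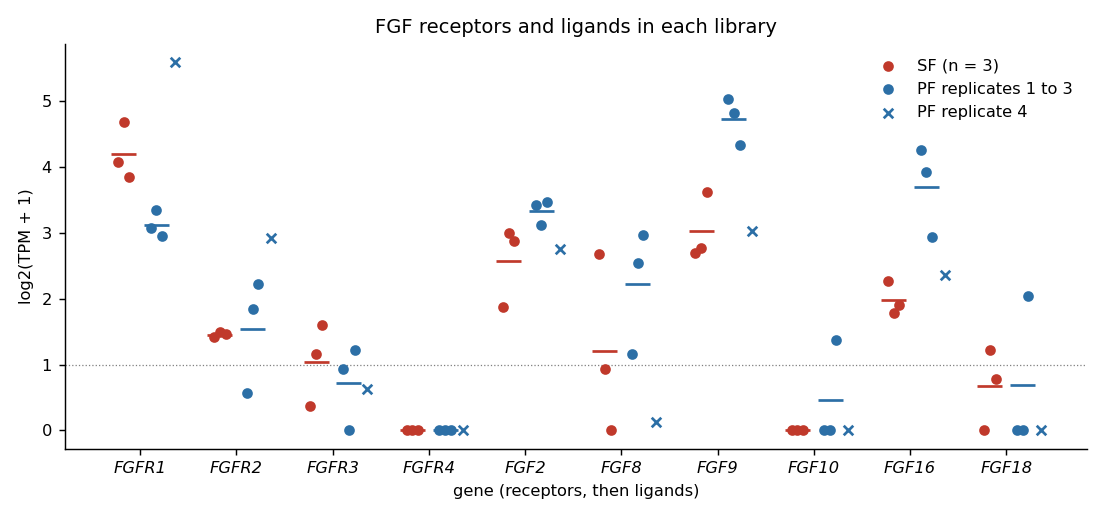
Level of each gene as log2(TPM + 1) in each library, with points for SF (left) and PF replicates 1 to 3 (right), bars for their means, crosses for PF replicate 4 and a dotted line at 1 TPM. *FGFR1* lies higher in SF and *FGF9*, *FGF16* and *FGF2* lie lower in SF without overlap, while PF replicate 4 has the highest *FGFR1* level, 47.1 TPM.

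The order of the levels, on the matched models, differed between the stages. In SF *FGFR1* led with a mean of 17.97 TPM, and its range did not overlap that of the next gene, *FGF9*, with 7.51 TPM. Below it *FGF2* (5.32 TPM), *FGF16* (3.00 TPM), *FGF8* (2.10 TPM), *FGFR2* (1.74 TPM), *FGFR3* (1.18 TPM) and *FGF18* (0.685 TPM) followed, each with a range that overlapped the one before. In PF replicates 1 to 3 *FGF9* led with 26.1 TPM, apart from *FGF16* with 12.9 TPM. *FGF2* (9.16 TPM), *FGFR1* (7.78 TPM), *FGF8* (4.30 TPM), *FGFR2* (2.25 TPM), *FGF18* (1.04 TPM), *FGFR3* (0.747 TPM) and *FGF10* (0.533 TPM) followed with overlapping neighbours.

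*FGFR1*, a receptor of broad expression, rose in SF. It reached 15.9, 24.6 and 13.4 TPM in SF replicates 1 to 3, against 7.42, 9.15 and 6.77 TPM in PF replicates 1 to 3. The lowest SF library lay above the highest of these PF libraries. The means were 17.97 ± 5.91 TPM in SF and 7.78 ± 1.23 TPM in PF (SD, n = 3 each), a 2.43-fold difference (log2 fold change 1.28 ± 0.36, DESeq2 adjusted p = 0.0053). PF replicate 4, at 47.1 TPM, was the highest library of all, and with it kept the log2 fold change was -0.07 and DESeq2 gave no adjusted p. Without SF replicate 2 the call ended (log2 fold change 1.06, DESeq2 adjusted p = 0.063).

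The value of *FGFR1* depends on which transcript models could be matched. The RefSeq table lists 10 models for the gene, 4 of them were among the quantified transcripts, and 2 carried reads. XM_024986194.1, of 3041 bases, had 15.9, 16.1 and 13.4 TPM in SF, against 7.42, 3.16 and 6.77 TPM in PF replicates 1 to 3. NM_001110207.1, of 3400 bases, had 8.54 TPM in SF replicate 2, against 5.99 TPM in PF replicate 2 and 37.6 TPM in PF replicate 4, and was at 0 in the other 4 libraries. Salmon divides reads that fit both models between them, so the sum is firmer than either part. Reads on models that could not be matched to a gene are not included, so the level of *FGFR1*, its place among the other genes and its fold change hold for the matched models only.

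*FGFR2*, the receptor with which FGF10 acts, did not pass. It had 1.67, 1.81 and 1.75 TPM in SF, against 0.478, 2.58 and 3.68 TPM in PF replicates 1 to 3 and 6.57 TPM in PF replicate 4. The SF libraries were close to each other, and the PF libraries spread to both sides of them. The log2 fold change was -0.40 ± 0.86 (95% interval -2.09 to 1.29, DESeq2 adjusted p = 0.80), an interval that spans changes in both directions. Of 5 quantified models 4 carried reads, and both XM_010820089.3 and XM_010820098.3 did so in PF replicate 4 and in no other library.

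*FGFR3*, which in the mouse restrains bone growth, was near the floor. It had 0.292, 1.24 and 2.02 TPM in SF, against 0.904, 0 and 1.34 TPM in PF replicates 1 to 3 and 0.539 TPM in PF replicate 4. The groups overlapped and the test did not pass (log2 fold change 0.74 ± 1.57, 95% interval -2.35 to 3.82, DESeq2 adjusted p = 0.80). *FGFR4*, the receptor that binds FGF19 in the liver, had 0 counts in all 7 libraries. A total of 3 counts would have given 0.0571 to 0.0731 TPM, so a level below this was not detectable on the 1 model quantified, of 2 listed.

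**Figure D2:**
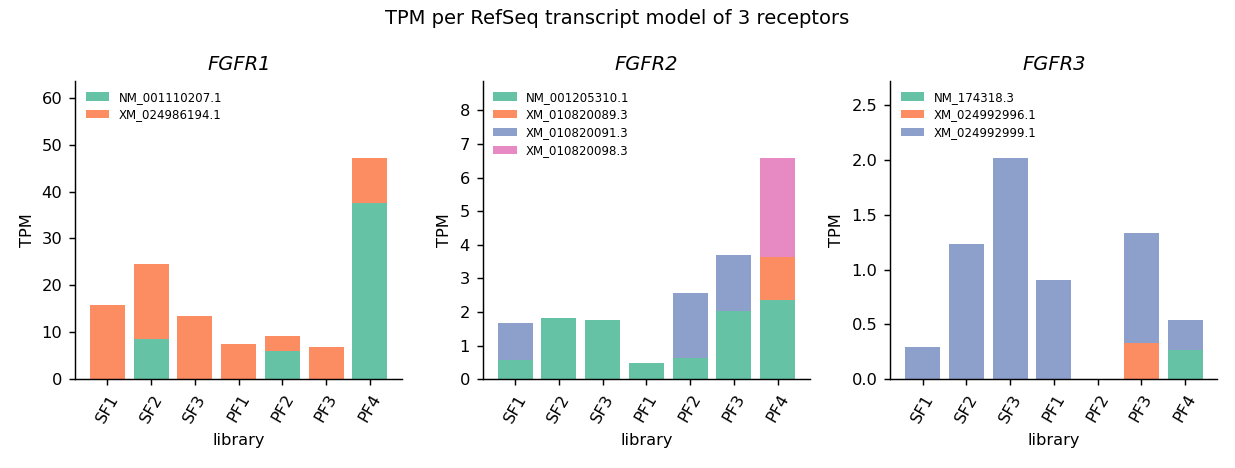
TPM of each RefSeq transcript model with reads, stacked, for *FGFR1*, *FGFR2* and *FGFR3* in the 7 libraries, SF first. The *FGFR1* model XM_024986194.1 has reads in every library, and NM_001110207.1 makes up 37.6 TPM in PF replicate 4.

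*FGFR1* made up most of the receptor TPM. Summed over the 4 receptors, SF libraries held 17.8, 27.7 and 17.2 TPM, against 8.80, 11.7 and 11.8 TPM in PF replicates 1 to 3 and 54.2 TPM in PF replicate 4, the highest of all. The share of *FGFR1* in this sum was 89.0%, 89.0% and 78.0% in SF, against 84.3%, 78.0% and 57.4% in PF replicates 1 to 3 and 86.9% in PF replicate 4. These shares overlapped between the stages.

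*FGF9*, which in the mouse drives testis development, fell in SF. It had 5.47, 5.83 and 11.2 TPM in SF, against 31.7, 27.3 and 19.2 TPM in PF replicates 1 to 3. The highest SF library, replicate 3, lay below the lowest of these PF libraries. The means were 7.51 ± 3.23 TPM in SF and 26.1 ± 6.37 TPM in PF (SD, n = 3 each), with a log2 fold change of -1.62 ± 0.59 (DESeq2 adjusted p = 0.034). This rested on 50, 44 and 87 counts in SF, against 248, 210 and 152 counts in PF, on a model of 697 bases. PF replicate 4 had 7.16 TPM, within the range of SF, and with it kept the call ended (log2 fold change -1.37, DESeq2 adjusted p = 0.20).

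*FGF16*, its close relative, fell as well. It had 3.82, 2.42 and 2.76 TPM in SF, against 18.1, 14.1 and 6.62 TPM in PF replicates 1 to 3. All SF libraries lay below these PF libraries, of which replicate 3 was the lowest, and PF replicate 4, with 4.11 TPM, was close to SF. The means were 3.00 ± 0.732 TPM in SF and 12.9 ± 5.82 TPM in PF (SD, n = 3 each), with a log2 fold change of -1.93 ± 0.69 (DESeq2 adjusted p = 0.031). The counts were 36, 19 and 22 in SF, against 146, 112 and 54 in PF, on a model of 712 bases. The call ended with PF replicate 4 kept (log2 fold change -1.70, DESeq2 adjusted p = 0.12).

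Both calls were narrow. That of *FGF9* ended without any single library other than SF replicate 3, with DESeq2 adjusted p = 0.15, 0.12 and 0.063 without PF replicates 1 to 3 and 0.12 and 0.16 without SF replicates 1 and 2. Without SF replicate 3 it was 0.0015. That of *FGF16* ended without any single library other than PF replicate 3, with DESeq2 adjusted p = 0.17 and 0.13 without PF replicates 1 and 2 and 0.0501, 0.15 and 0.11 without SF replicates 1 to 3. Both also ended with the filter of 10 counts in 3 libraries (DESeq2 adjusted p = 0.069 and 0.081) and when the library number was a term of the fit (0.080 and 0.15). The direction was the same in every fit listed in the plot of the fits.

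**Figure D3:**
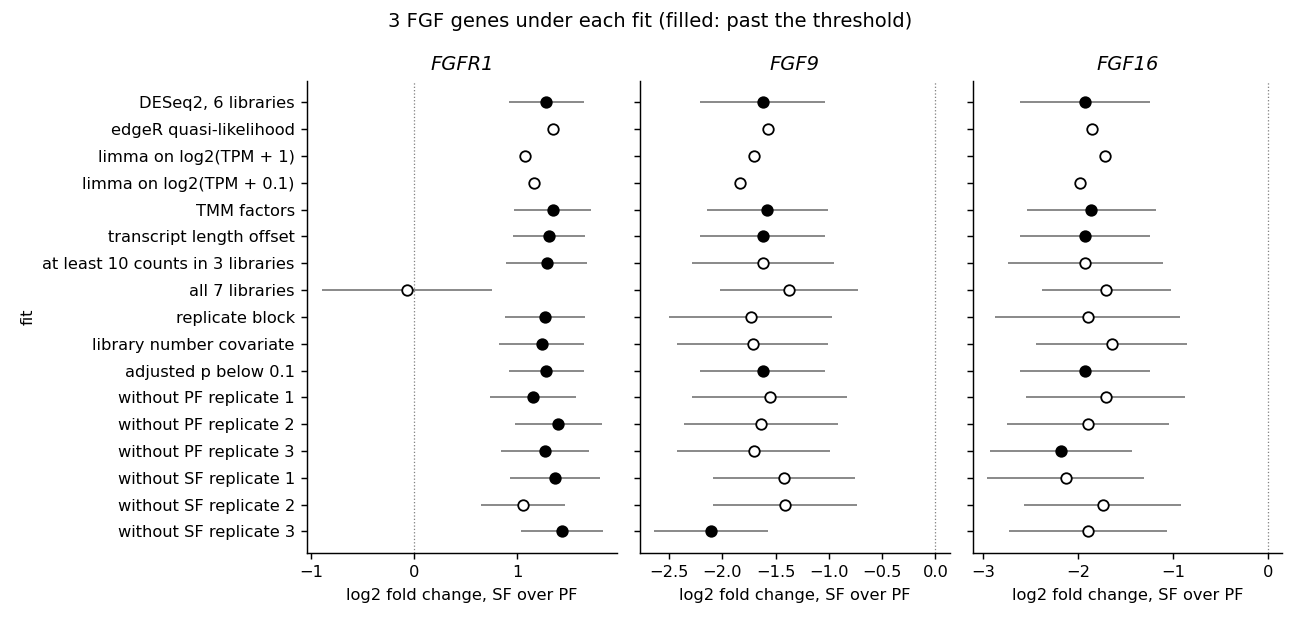
Log2 fold change of SF over PF for *FGFR1*, *FGF9* and *FGF16* under each fit, with bars for ± 1 SE where DESeq2 gave one and filled points where the adjusted p passed the threshold. *FGF9* and *FGF16* stay below 0 in each fit and *FGFR1* above 0 in each fit other than that with all 7 libraries (-0.07).

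*FGF2*, or basic FGF, leaves cells without a classical signal peptide and is a mitogen for many cell types. It had 2.65, 6.99 and 6.32 TPM in SF, against 9.73, 7.68 and 10.1 TPM in PF replicates 1 to 3, and 5.73 TPM in PF replicate 4. The SF libraries lay below PF replicates 1 to 3 without overlap, as 18.5% of all genes tested did (14.3% had all SF above, 32.7% either). Of the 8 FGF genes tested 4 did not overlap. The test did not pass (log2 fold change -0.69 ± 0.49, 95% interval -1.65 to 0.27, DESeq2 adjusted p = 0.34). With the library number in the fit it did (log2 fold change -1.10, DESeq2 adjusted p = 0.022).

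*FGF8*, known in the mouse as an oocyte ligand that acts on cumulus cells, varied as much within as between the stages. It had 5.40, 0.901 and 0 TPM in SF, against 1.22, 4.83 and 6.85 TPM in PF replicates 1 to 3, and 0.0965 TPM in PF replicate 4. SF replicate 1 lay within the range of PF, and SF replicate 3 had no count, where 3 counts would be 0.225 to 0.290 TPM over the libraries. The log2 fold change was -1.03 ± 1.67 (95% interval -4.31 to 2.25, DESeq2 adjusted p = 0.72).

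*FGF18* and *FGF10* were seen in few libraries. *FGF18* had 0, 1.33 and 0.722 TPM in SF, against 0, 0 and 3.13 TPM in PF replicates 1 to 3 and 0 in PF replicate 4, and did not pass (log2 fold change -0.75 ± 3.12, DESeq2 adjusted p = 0.90). *FGF10* had 1.60 TPM from 79 counts in PF replicate 3 and 0 counts in the other 6 libraries, SF included, where 3 counts would be 0.0526 to 0.0674 TPM. DESeq2 set its p aside as that of a single outlying count, so no fold change is given. Of the libraries compared, PF replicate 3 was thus the highest for *FGF8*, *FGF10*, *FGF18*, *FGF2* and *FGFR2*, and it had 9 of the 10 genes at 1 TPM or more, against 6, 7 and 6 in SF and 5 and 6 in PF replicates 1 and 2.

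Against PF replicates 1 to 3 the ligands together were lower in SF in TPM and the receptors together higher, whereas the receptor sum of PF replicate 4, 54.2 TPM, was above every SF library. The 6 ligands summed to 17.3, 17.5 and 21.0 TPM in SF, against 60.8, 53.9 and 47.4 TPM in PF replicates 1 to 3 and 17.1 TPM in PF replicate 4. *FGF9* held 31.5%, 33.4% and 53.4% of this sum in SF, against 52.2%, 50.6% and 40.4% in PF replicates 1 to 3. The ratio of *FGF9* to *FGF16* TPM was 1.43, 2.41 and 4.07 in SF, against 1.76, 1.94 and 2.90 in PF replicates 1 to 3, and thus overlapped. No test was made of these sums and ratios.

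Markers of the 2 cell types of the follicle moved in the same directions as these genes. Among all genes tested 11.0% were called lower and 8.14% higher in SF. Of 15 oocyte markers tested 12 fell in SF and none rose (median log2 fold change -2.44), and of 12 granulosa markers 8 rose and none fell (median 1.43), where the median of all genes tested was 0.02. The fall of *FGF9* (-1.62) and *FGF16* (-1.93) was smaller than that median of the oocyte markers, and the rise of *FGFR1* (1.28) was close to that of the granulosa markers. Summed oocyte markers were at 1778, 1415 and 207 TPM in SF, against 4926, 4865 and 2503 TPM in PF replicates 1 to 3 and 440.0 TPM in PF replicate 4. Over the 4 PF libraries *FGF9* (31.7, 27.3, 19.2 and 7.16 TPM) and *FGF16* (18.1, 14.1, 6.62 and 4.11 TPM) stood in the same order as these sums. In SF they did not, and replicate 3, with the lowest sum, had 11.2 TPM of *FGF9*, the highest of SF, and 2.76 TPM of *FGF16*. Summed granulosa markers were at 2958, 2966 and 3717 TPM in SF, against 1605, 1355 and 1155 TPM in PF replicates 1 to 3 and 1237 TPM in PF replicate 4. *FGFR1* did not stand in the order of these sums. In SF it was lowest in replicate 3 (13.4 TPM), which had the highest sum, and PF replicate 4 had 47.1 TPM of it. In whole follicles fewer cells of a type and less RNA per cell cannot be told apart, and the part of cell composition in these differences was not tested.

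Markers of cells outside the follicle gave a mixed picture. PF replicate 4, the highest for *FGFR1*, was also the highest in the sums of stromal, theca (876 TPM) and smooth muscle markers (1038 TPM). The sums of SF overlapped those of PF replicates 1 to 3 for stromal and theca markers (149 to 253 TPM in SF, against 101 to 164 TPM in PF) and endothelial markers (1.68 to 9.51 TPM in SF, against 6.28 to 16.6 TPM in PF). The smooth muscle sums lay above (220.0 to 260.4 TPM in SF, against 72.3 to 152 TPM in PF), mostly from *MYH11* (163, 158 and 120 TPM in SF, against 86.0, 73.0 and 48.1 TPM in PF), while the mean log2(TPM + 1) of the list overlapped (4.17 to 5.22 in SF, against 2.90 to 4.59 in PF). The immune sums lay below (3.92 to 18.8 TPM in SF, against 40.8 to 89.2 TPM in PF), with *CSF1R* as the largest part (1.82 to 16.3 TPM in SF, against 31.5 to 89.2 TPM in PF). *PTPRC*, *CD68* and *CD14* were above 0 in every SF library and at 0 in PF replicates 1 and 2. PF replicate 3 had the highest *CD68* of all libraries, 5.13 TPM, against 0.902 to 0.929 TPM in SF. It also had the highest *CD14*, 3.43 TPM, against 0.931 to 1.25 TPM in SF. Its *PTPRC*, 0.738 TPM, lay within the range of SF. *C1QA* was at 0 in all 7 libraries. The stromal sums of SF and of PF replicates 1 to 3 came mostly from *DCN* (457, 256 and 145 TPM in SF, against 390, 398 and 573 TPM in PF). The mean log2(TPM + 1) of that list also overlapped (2.45 to 3.43 in SF, against 2.22 to 2.84 in PF). Of 9 stromal markers tested 1 was higher in SF, and their median log2 fold change was 0.85. Of 5 theca markers tested 1 rose and 1 fell, of 5 smooth muscle markers 2 rose, of 2 immune markers 1 fell, and none of 4 endothelial markers passed. These small counts stand beside 8.14% higher and 11.0% lower in SF among all genes tested. The part of these cells in the FGF results was not tested.

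The number in each library's name, below 40 for SF replicate 1 and PF replicates 1 and 2 and above 40 for the rest, also divided the libraries, and the labels do not say what it stands for. Within numbers below 40 and above 40 the difference of SF minus PF in log2(TPM + 1), PF replicate 4 left out, was 0.87 and 1.31 for *FGFR1*, -2.23 and -1.14 for *FGF9*, -1.82 and -1.09 for *FGF16* and -1.40 and -0.53 for *FGF2*. For these 4 genes the direction was the same on both sides. Their SF libraries did not overlap PF replicates 1 to 3, so any split gives this, and it says nothing about the library number. It was not for *FGF8* (0.83 and -2.51), *FGFR2* (0.21 and -0.75) or *FGFR3* (-0.09 and 0.15).

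The rest of the pathway was read from 8 lists of 89 genes, of which 73 were tested. Of these 10 rose, 7 fell and 56 did not pass, with a median log2 fold change of 0.36. These counts, and those of each list below, stand beside 8.14% higher and 11.0% lower among all genes tested. Of 12 other secreted ligands 6 had a count in the libraries compared, 3 were tested and none passed. Of 3 co-receptor and decoy genes 2 were tested and none passed, as was the case for 3 of 7 genes of FGF binding and FLRT proteins. *KLB*, the co-receptor of FGF19 and FGF21 and chosen after its values were seen, had 0.0401, 0.379 and 0.317 TPM in SF, against 1.9, 0.841 and 1.56 TPM in PF replicates 1 to 3 and 0 in PF replicate 4 (log2 fold change -2.46 ± 0.96, DESeq2 adjusted p = 0.054).

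Of the 4 FGF homologues that stay inside the cell and bind voltage-gated sodium channels, 3 were tested and all 3 passed. *FGF12* rose, with 42.4, 58.0 and 64.1 TPM in SF, against 33.0, 16.6 and 26.3 TPM in PF replicates 1 to 3 (log2 fold change 1.17 ± 0.34, DESeq2 adjusted p = 0.0063). *FGF11* rose, with 15.2, 15.5 and 10.9 TPM in SF, against 4.13, 8.54 and 3.64 TPM in PF (log2 fold change 1.55 ± 0.44, DESeq2 adjusted p = 0.0059). *FGF14* fell, with 3.56, 1.56 and 2.19 TPM in SF, against 20.3, 10.9 and 13.1 TPM in PF (log2 fold change -2.51 ± 0.51, DESeq2 adjusted p = 4.7e-05). In none of the 3 did SF overlap PF replicates 1 to 3, as in 32.7% of all genes tested. The 3 were already called on the same libraries, so this is no further result. PF replicate 4 had 22.9, 1.52 and 0.371 TPM of *FGF12*, *FGF11* and *FGF14* in that order. With it kept *FGF12* passed, and *FGF11* and *FGF14* did not (DESeq2 adjusted p = 0.053 and 0.19).

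Heparan sulfate, which FGFs need to bind their receptors, is carried by core proteins that moved in both directions. Of 11 core proteins tested 4 rose, 3 fell and 4 did not pass (median log2 fold change 0.54). The secreted perlecan, *HSPG2*, had 22.7, 23.9 and 20.3 TPM in SF, against 4.53, 6.48 and 5.56 TPM in PF replicates 1 to 3 and 33.4 TPM in PF replicate 4, the highest of all. With that library kept its log2 fold change was 0.80, without an adjusted p, against 2.10 ± 0.30 without it (DESeq2 adjusted p = 1.8e-09). The membrane-anchored glypican *GPC1* rose (log2 fold change 1.75 ± 0.41, DESeq2 adjusted p = 5.0e-04), with 51.2, 38.6 and 35.0 TPM in SF, against 9.68, 12.8 and 16.3 TPM in PF replicates 1 to 3. PF replicate 4 had 308 TPM of it, and keeping that library turned the direction (log2 fold change -1.13). *GPC5* rose by less (0.71 ± 0.23, DESeq2 adjusted p = 0.017), while *GPC3* and *GPC4* fell (-1.91 ± 0.50 and -1.20 ± 0.35, DESeq2 adjusted p = 0.0019 and 0.0062). The transmembrane syndecan *SDC3* fell, with 27.1, 38.4 and 9.38 TPM in SF, against 161, 151 and 57.4 TPM in PF replicates 1 to 3 and 20.4 TPM in PF replicate 4 (log2 fold change -2.19 ± 0.55, DESeq2 adjusted p = 0.0015). With PF replicate 4 kept the calls of *SDC3*, *GPC3* and *GPC5* ended (DESeq2 adjusted p = 0.096, 0.15 and 0.12), and that of *GPC4* held (0.0066).

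Of 13 heparan sulfate enzymes 3 rose, 1 fell and 9 did not pass (median log2 fold change 0.34). *HS6ST2* and *HS6ST1*, which add the 6-O-sulfate, rose. *HS6ST2* had 34.8, 36.7 and 34.6 TPM in SF, against 7.77, 16.4 and 3.99 TPM in PF replicates 1 to 3 (log2 fold change 2.06 ± 0.52, DESeq2 adjusted p = 0.0013), and *HS6ST1* had 47.0, 58.3 and 62.3 TPM in SF, against 23.0, 11.8 and 28.9 TPM in PF (1.47 ± 0.49, adjusted p = 0.021). *SULF2*, which removes that sulfate outside the cell, fell, with 15.9, 19.6 and 4.12 TPM in SF, against 81.9, 63.2 and 25.3 TPM in PF replicates 1 to 3 (log2 fold change -1.99 ± 0.60, DESeq2 adjusted p = 0.0088). The glycosyltransferase gene *EXTL2* rose (1.99 ± 0.62, DESeq2 adjusted p = 0.012). With PF replicate 4 kept none of these 4 calls held (DESeq2 adjusted p = 0.13, 0.25, 0.30 and 0.42 in the order named).

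**Figure D4:**
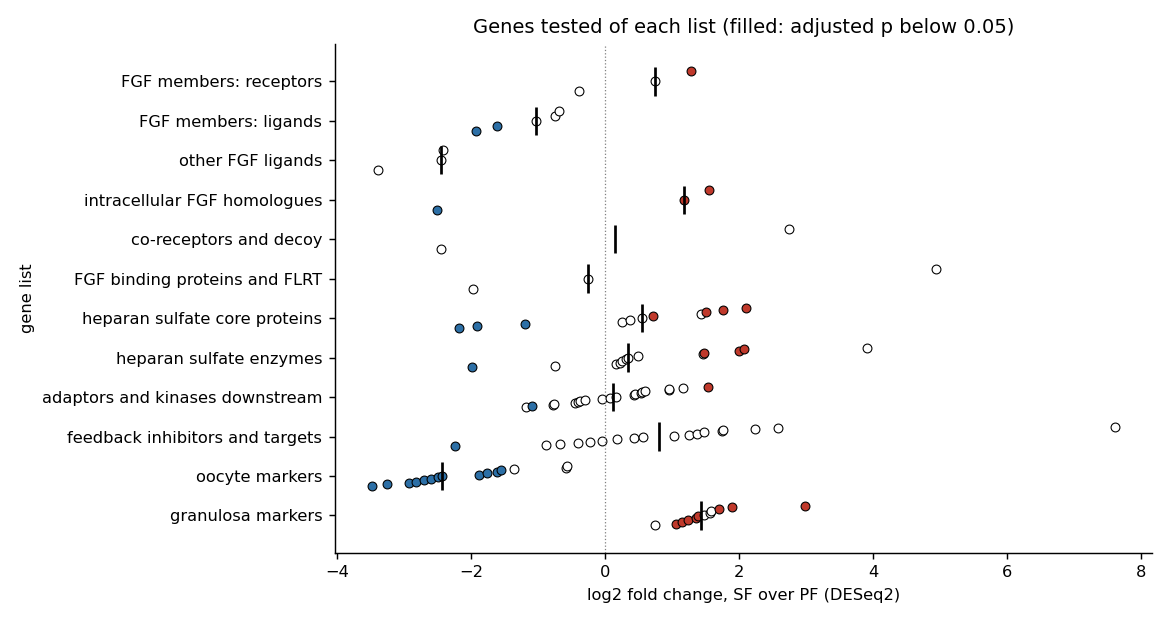
Log2 fold change of SF over PF of each gene tested, by list, filled where the DESeq2 adjusted p was below 0.05, with a bar for the median of the list. The granulosa markers lie above 0 (median 1.43) and the oocyte markers below 0 (-2.44), and the core proteins of heparan sulfate have 4 calls above and 3 below 0.

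Inside the cell most of the route did not pass. Of 20 adaptors and kinases *SOS2*, a RAS activator, rose (log2 fold change 1.54 ± 0.58, DESeq2 adjusted p = 0.045), 1 gene fell and 18 did not pass. *SOS2* had 9.58, 7.87 and 12.5 TPM in SF, against 1.73, 4.09 and 4.99 TPM in PF replicates 1 to 3 and 9.61 TPM in PF replicate 4. The call of *SOS2* ended without any single library other than PF replicate 3 (DESeq2 adjusted p = 0.077 to 0.20). It also ended with PF replicate 4 kept (log2 fold change 0.97, DESeq2 adjusted p = 0.43).

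Of 18 feedback inhibitors and targets, 1 passed, and the median log2 fold change of the list was 0.79. *ETV5*, a transcription factor that FGF signaling is known to induce, fell, with 0.705, 1.82 and 1.48 TPM in SF, against 6.42, 8.25 and 5.75 TPM in PF replicates 1 to 3 and 4.21 TPM in PF replicate 4 (log2 fold change -2.25 ± 0.52, DESeq2 adjusted p = 4.3e-04). The *ETV5* call held with PF replicate 4 kept (log2 fold change -2.15, DESeq2 adjusted p = 5.1e-04). *DUSP6*, the phosphatase of ERK, chosen after its values were seen, did not pass (log2 fold change 2.58 ± 1.14, DESeq2 adjusted p = 0.093). It had 19.3, 90.0 and 413 TPM in SF, against 3.02, 26.5 and 60.3 TPM in PF replicates 1 to 3. The 3 libraries with numbers below 40 had its 3 lowest values, 19.3 TPM in SF, against 3.02 and 26.5 TPM in PF.

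The genes with a profile most like that of a called gene were sought among 13397 genes, by the root mean square difference of centred log2(TPM + 1) over the 7 libraries. For *FGFR1* they were *CKAP4*, *LGALS3BP* and *COLGALT1*, at 0.22, 0.22 and 0.23, where the profile of *FGFR1* itself had a spread of 0.88 and its peak in PF replicate 4. For *FGF9* they included *CSNK2A2* and *ZNF585A*, both at 0.25 (spread of *FGF9* 0.91). For *FGF16* they were *LOC100616526*, *GRPEL1* and *C1H3orf38*, at 0.13, 0.17 and 0.18 (spread of *FGF16* 0.90). *LOC100616526* was low, with 0.463, 0 and 0 TPM in SF. Neither it nor *C1H3orf38* was called (DESeq2 adjusted p = 0.18 and 0.056).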

How the data were processed

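RNA of pooled follicles was amplified with SMART-Seq v4, which does not mark strand. According to the study's methods Salmon mapped the trimmed reads to the transcriptome of the ARS-UCD1.3 assembly, and the transcript names in the files are RefSeq accessions. Per the file headers, the authors deposited for each transcript an estimated count, a TPM and an effective length. Here 50205 of 76123 transcripts (66.0%) were matched by accession, version ignored, to genes of a RefSeq table of ARS-UCD2.0, used for names only. Unmatched transcripts held 9.71% to 10.7% of the counts. TPM were summed per gene, and the summed estimated counts were rounded to whole numbers. Groups and replicate numbers came from the sample titles. No libraries of a group were duplicates (chi-square of 98.3 or more per degree of freedom).

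SF were compared with PF, replicate 4 left out as in the study, with DESeq2 1.42.0 in R 4.3.3 (median-of-ratios size factors, default independent filtering, Benjamini-Hochberg adjusted p below 0.05). Alternatives were edgeR 4.0.16, limma 3.58.1 (genes with 1 TPM or more in 3 or more libraries, a pseudocount of 1 or 0.1 TPM before log2), TMM factors, a transcript length offset, a filter of 10 counts in 3 libraries, all 7 libraries, a replicate block, a term for the library number (below or above 40), a threshold of 0.1, and the omission of each library. On simulated data with known changes the fit recovered most of the changed genes, with more calls on unchanged genes than the threshold allows. The changes simulated were larger than those of *FGFR1*, *FGF9* and *FGF16*, so this recovery does not cover changes of their size. All 10 genes were named, with up to 6 called genes per list at 1 TPM or more in a stage mean by smallest adjusted p, and the 3 nearest profiles of each called gene. Exceptions are marked, and 2 genes that met this rule are not reported here. The genes and lists were chosen with earlier results of these data known. Reads carried no molecular identifiers, so floors of 3 counts cover counting error only. Tables were computed with Python 3.11.15, numpy 2.4.6 and pandas 2.3.3 and plotted with matplotlib 3.10.9.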

Additional observations from a re-analysis of the deposited data

Results flagged for a closer look

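In the 4 PF libraries, 25 genes were searched with Dixon's 95% criterion for a library far from the nearest other. They were 9 of the FGF genes and the 16 called genes of the pathway chosen for naming. In unselected groups chance gives such a library in about 1 of 20. That rate cannot be applied here, since the 16 genes were chosen by calls that left PF replicate 4 out. A gene with counts in only 1 PF library, such as *FGF10* or *FGF18*, meets the criterion in any case. A total of 6 genes had such a library. PF replicate 4 was far above the other PF libraries for *FGFR1* (47.1 TPM), *HSPG2* (33.4 TPM), *GPC1* (308 TPM) and *EXTL2* (14.9 TPM). PF replicate 3 was the only PF library with counts of *FGF10* (1.60 TPM) and of *FGF18* (3.13 TPM).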

How the results depend on the processing

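Of all genes DESeq2 called 2876. The count was 0 with edgeR (4044 at an unadjusted p below 0.05), 792 and 2 with limma on log2(TPM + 1) and log2(TPM + 0.1), and 858 with all 7 libraries, and 1887 to 3947 with 1 library left out, lowest without PF replicate 2. The 1 FGF gene called higher became 0 with edgeR, both limma fits and all 7 libraries, and 0 to 1 with 1 library left out. The 2 called lower became 0 with edgeR, both limma fits, the filter of 10 counts, all 7 libraries and the replicate block, and 0 to 2 with 1 library left out. At an unadjusted p below 0.05 edgeR had 1 of the 10 genes (*FGFR1*) and limma 3 (*FGFR1*, *FGF9* and *FGF16*). The counts under the library number covariate and without SF replicate 1, 2 or 3 include *FGF10*, whose reads came from 1 library. *FGFR1* turned with all 7 libraries (-0.074), as did *GPC1* (-1.13). Of genes with no call, *FGFR2* turned with limma on log2(TPM + 0.1) (0.032), with the replicate block (0.068) and without PF replicate 3 (-0.92 to 0.29 with 1 library left out), *FGFR3* with the library number covariate (-0.072) and without SF replicate 3 (-0.026 to 1.70), and *FGF18* with the block (0.83) and without PF replicate 3 (-1.52 to 5.89). The causes were not tested. Of the 16 called pathway genes chosen for naming, 16 kept their call with TMM factors, the length offset, the filter and the block, 14 with the library number covariate, 5 with limma on log2(TPM + 1), 4 with all 7 libraries and 8 to 16 with 1 library left out. The numbers of FGF genes expressed were 4 to 6 per stage in each alternative. Deviations from the stage means correlated at 0.26, -0.04 and 0.40 for replicate numbers 1 to 3, against -0.42 to 0.26 for unlike numbers. Deviations within a stage sum to 0, so these values depend on each other. They cannot decide whether replicate numbers pair the libraries (the replicate block called 4077 genes). Low counts limit *FGF8*, *FGF10*, *FGF18* and *FGFR3*, and unmatched models limit the receptors.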
